A study of Nicotiana tabacum with 21 samples.

Results

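Tobacco cells that divide without added auxin were compared between 2 habituated suspension lines, BY-2H and VBI-2, in their exponential phase. The samples labelled as exponential BY-2H and exponential VBI-2 were taken, 3 libraries each, which is 6 of the 21 libraries of the series, and all 69491 transcripts of the tobacco cDNA set were considered. BY-2H was derived from cells of the cultivar Bright Yellow 2 and grew in Murashige and Skoog medium without auxin, and VBI-2 was derived from VBI-0, a line of the cultivar Virginia Bright Italia, and grew in a modified Heller medium without auxin. Both lines were kept in the dark and harvested at day 3 after subculture, and neither was treated. The lines on auxin were VBI-0 in both phases (Heller medium with 2,4-D and NAA) and BY-2 in the stationary phase (Murashige and Skoog medium with 2,4-D). They and the stationary libraries of both habituated lines are used here only to set the difference in context. Each line is a single culture, and the labels call its replicates biological without saying whether they came from separate flasks, so p-values measure the spread between samples of 1 line. Paired 150 bp reads came from Novogene for BY-2H, and single 50 bp reads from GATC Biotech for VBI-2. Cultivar, medium, company and read type all change with the line and cannot be told apart from it.

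In the canonical pathway, auxin joins an F-box receptor of the TIR1/AFB family to an AUX/IAA repressor, which is then degraded, so that AUXIN RESPONSE FACTORs (ARFs) can act on auxin-induced genes. Many AUX/IAA, SAUR and GH3 genes are themselves induced by auxin. How much auxin a cell holds depends on synthesis (TAA and YUCCA enzymes, with AMI1 acting on an amide precursor in another route), on inactivation by conjugation, methylation, glycosylation or oxidation, on release from conjugates by amidohydrolases, and on carriers for influx (AUX1/LAX), efflux (PIN) and transport in the endoplasmic reticulum (PILS). Most cultured plant cells need auxin in the medium to divide, and habituated lines have lost this need. Tobacco is an allotetraploid with genomes from Nicotiana sylvestris (S) and Nicotiana tomentosiformis (T), and gene names that end in S or T give the origin of the copy.

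Sequences that identify the main receptor transcript and the 2 transcripts used as references by the study's own RT-qPCR are shown, because they address the same loci without the read type of a library. These are the designed primers, 5′ to 3′, with none of the bases set in capitals. The first pair addresses NtTIR1T, the next NtEF1a and the last the aminopeptidase-like reference.
NtTIR1_qFor1: gtgctctctggctgtgaaag
NtTIR1_qRev1: cgcattgtctcaagctttgc
NtEF1a F: tgagatgcaccacgaagctc
NtEF1a R: ccaacattgtcaccaggaagtg
aminop_qFor1: tttgtgggtcgcctgtcaat
aminop_qRev1: cgcttccacctagagaacgc
Transcript levels are given as TPM (a share of all transcripts, scaled for transcript length). NtEF1a was at 579, 583 and 558 TPM in BY-2H and at 439, 521 and 469 TPM in VBI-2, and the aminopeptidase-like transcript at 68.1, 64.3 and 68.0 TPM in BY-2H and at 61.9, 67.6 and 64.5 TPM in VBI-2. NtEF1a was thus somewhat higher in BY-2H on the TPM scale without overlap, and the libraries of the other reference overlapped. On normalized reads neither was called different between the lines, with log2 fold changes of 0.09 ± 0.06 and 0.06 ± 0.07. All errors of log2 fold changes here are SE from 3 against 3 libraries, and all differences are coded as BY-2H minus VBI-2.

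The lines differed in most of the transcripts they expressed. Of 44996 transcripts whose mean passed 0.5 TPM in either line or both, 12718 were higher in BY-2H, which is a background of 28.3%, and 13054 were higher in VBI-2, a background of 29.0%. A transcript was called where edgeR's quasi-likelihood test gave a p of 0.05 or less after Benjamini-Hochberg adjustment over all tested transcripts and the log2 fold change reached 1 in size. With 57.3% of all tested transcripts called in 1 direction or the other, a call alone says little about any gene list, and each count below is to be read against these shares. In the stationary phase, where 57.8% of transcripts were called, 28.4% of 45002 in favour of BY-2H and 29.4% in favour of VBI-2, 22244 transcripts were called in the same direction as in the exponential phase and 33 in the opposite one. The shared calls were 89.0% of the exponential and 88.4% of the stationary calls among the 43398 transcripts tested in both. Libraries held between 12251800 and 13096413 estimated read pairs in BY-2H and between 13273004 and 17331422 estimated reads in VBI-2, and fractional values made up 47.3% to 50.03% of the non-zero estimates in BY-2H against 78.7% to 78.9% in VBI-2. Reads that match more than 1 transcript are divided by Salmon, so values of near-identical S and T copies are uncertain, more so with the short single reads of VBI-2. Transcripts under 300 bases, 2977 of those tested, had a median log2 fold change of -1.33, against values between -0.09 and 0.03 in every longer class. With effective lengths as an offset the medians were -1.90 under 300 bases and 0.27 for the 4591 transcripts from 300 to under 500 bases, so both short classes depended on this choice.

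The auxin receptor NtTIR1T was the most abundant transcript of the receptor, AUX/IAA and ARF classes in BY-2H. It was at 1140.5, 1213 and 1183 TPM in the BY-2H libraries and at 3.96, 2.37 and 3.83 TPM in the VBI-2 libraries. All BY-2H libraries lay far above all VBI-2 libraries. NtTIR1T was 322-fold higher in BY-2H (log2 fold change 8.33 ± 0.12, adjusted p 2.1e-21 in edgeR), and it ranked 42 by mean TPM among 69491 transcripts in BY-2H and 25730 in VBI-2. The difference was 8.83 on the log2 scale in the stationary phase. In the lines on auxin NtTIR1T was at 0.868 ± 0.178 TPM (SD, n = 3) in exponential VBI-0 and at 7.84 ± 3.31 TPM in stationary BY-2, so its level in VBI-2 lay between those of the 2 dependent lines. The copy from the other genome, NtTIR1S, was at 2.63, 2.72 and 3.59 TPM in BY-2H and at 5.14, 4.42 and 4.77 TPM in VBI-2. NtTIR1S was thus lower in all BY-2H libraries, by less than the fold change limit (-0.85 ± 0.17), and without replicate 3 of BY-2H it was called with -1.01.

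The other receptors of the TIR1/AFB class differed much less. Of 14 members, 13 were tested, 3 were higher in BY-2H and 3 were higher in VBI-2, with a median log2 fold change of 0.25 against -0.03 over all transcripts. Apart from NtTIR1T, the members higher in BY-2H were Nitab4.5_0010603g0020.1 with a mean of 4.16 TPM against 0.124 TPM and Nitab4.5_0000053g0050.1 with 1.74 against 0.626 TPM. The first of these rests on 3 reads in VBI-2, and its ratio of 24.8 has a counting interval of 8.05 to 124 (95%). Higher in VBI-2 were Nitab4.5_0002093g0100.1 (3.39 against 10.9 TPM), Nitab4.5_0002093g0180.1 (0.114 against 1.05 TPM) and Nitab4.5_0000519g0220.1 (2.87 against 6.32 TPM). The last of these was no longer called without replicate 3 of BY-2H, where its log2 fold change was -0.95. The 7 members that were not called included the next most abundant receptor, Nitab4.5_0005161g0090.1, at 27.1 to 34.1 TPM in BY-2H and 54.4 to 69.4 TPM in VBI-2 (-0.94 ± 0.10), which passed the limit without replicate 1 of BY-2H or replicate 2 of VBI-2 (-1.02 and -1.03). Summed over the class, receptor transcripts came to between 1276 and 1354 TPM in BY-2H and between 156 and 180.0 TPM in VBI-2, and most of the BY-2H sum was NtTIR1T.

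AUX/IAA repressor transcripts were mostly higher in BY-2H. Of 50 members, 42 were tested, 23 were higher in BY-2H and 9 were higher in VBI-2, and the median log2 fold change was 1.66. Their summed level was 1450.0 to 1476 TPM in BY-2H and 812, 532 and 564 TPM in the VBI-2 libraries, against a sum of 3670.4 TPM over the means of VBI-0 with auxin in the same phase. Among the most different, Nitab4.5_0001592g0020.1 was at 49.4, 38.7 and 41.8 TPM in BY-2H and at 0.914, 0.395 and 1.20 TPM in VBI-2 (5.95 ± 0.25), while exponential VBI-0 held 228 ± 30.7 TPM (SD, n = 3). Nitab4.5_0011578g0020.1 and Nitab4.5_0004391g0010.1, at mean levels of 5.94 and 7.86 TPM in BY-2H, had 0 reads in all VBI-2 libraries, which makes them at least 85.7-fold and 82.7-fold higher when 3 reads are set as the floor for the group. The floors and counting intervals cover counting error alone. In the other direction, Nitab4.5_0000187g0160.1 was at 12.3, 9.11 and 13.1 TPM in BY-2H and at 118, 50.9 and 71.6 TPM in VBI-2 (-2.45 ± 0.23), with no overlap but a wide range in VBI-2. Also higher in VBI-2, Nitab4.5_0007553g0010.1 and Nitab4.5_0002327g0090.1 had 0 reads in BY-2H and means of 7.96 and 14.2 TPM in VBI-2, at least 56.1-fold and 6.79-fold higher, and the second of them is only 261 bases long. In the stationary phase 27 of 39 tested members were higher in BY-2H and 6 were higher in VBI-2, and 1 member, Nitab4.5_0000351g0240.1, changed direction (-5.28 and 2.33).

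Replicate 1 of VBI-2 stood apart from the other VBI-2 libraries in some auxin classes but not in others. It held the highest of the 3 VBI-2 values in 33 of 42 tested AUX/IAA transcripts, in 34 of 46 ARF transcripts and in 16 of 22 transcripts of inactivation. The same held for 10 of 16 ABCB transcripts, 10 of 18 SAUR-like transcripts and 8 of 13 receptors, against 42.4% over all tested transcripts. Near or below that share were biosynthesis (5 of 11), influx (5 of 13), efflux (3 of 8), endomembrane (6 of 17), reactivation (1 of 12) and the unclassed auxin-response transcripts (233 of 550). Without replicate 1 of VBI-2, 24 AUX/IAA transcripts were higher in BY-2H and 8 were higher in VBI-2, so the counts for the class moved by 1.

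ARF transcripts differed in both directions. Of 49 members, 46 were tested, 16 were higher in BY-2H and 9 were higher in VBI-2, and the median was 0.19. The highest differences among transcripts of at least 5 TPM were those of Nitab4.5_0000106g0200.1, with means of 10.8 against 0.168 TPM (5.93 ± 0.23), and of Nitab4.5_0000476g0080.1, with 0.683 against 6.92 TPM (-3.36 ± 0.20). NtARF5S, a homolog of MONOPTEROS, an ARF with a central part in embryo patterning in Arabidopsis, was at 37.4, 42.9 and 36.9 TPM in BY-2H and at 45.8, 41.5 and 44.0 TPM in VBI-2, and its libraries overlapped (-0.20 ± 0.07). SAUR-like transcripts, short auxin-induced messages, were tested in 18 of 38 members, of which 8 were higher in BY-2H and 3 were higher in VBI-2 with a median of 1.52. Of those tested, 11 were shorter than 500 bases, and among members of at least 500 bases only 2 were called higher in BY-2H. Among the 550 tested of 674 further auxin-response transcripts without a class, 144 were higher in BY-2H and 166 were higher in VBI-2, with a median of -0.10, which is close to the shares over all transcripts.

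**Figure D1:**
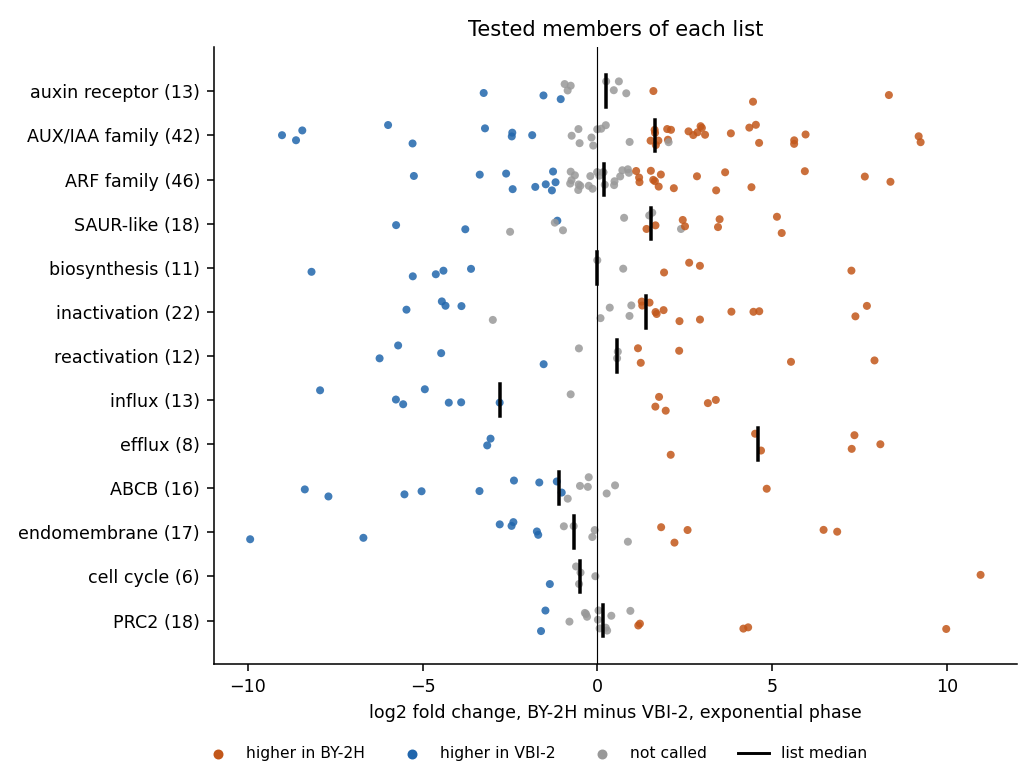
Log2 fold changes (x axis, BY-2H minus VBI-2, exponential phase) of the tested members of each list (rows, number tested in parentheses), with points coloured by call and a bar at the list median. Medians lay at 1.66 for AUX/IAA and 4.59 for efflux and at -1.09 for ABCB and -2.79 for influx, which joins LAX (1.76) and NRT1 (-5.24) transcripts, and fitted values of transcripts without reads in a line depend on the prior count.

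Enzymes of auxin synthesis differed in both directions. Of 27 members, 11 were tested, 4 were higher in BY-2H and 5 were higher in VBI-2. NtAMI1S, an amidase homolog, was at 25.4, 24.6 and 23.9 TPM in BY-2H and at 2.67, 3.23 and 3.95 TPM in VBI-2, 7.62-fold higher in BY-2H (2.93 ± 0.14). Its counterpart NtAMI1T was at 20.1, 21.99 and 20.9 TPM and at 19.9, 22.6 and 21.1 TPM, values that overlapped, with a log2 fold change of -0.00 ± 0.10. In the TAA family, which makes indole-3-pyruvate from tryptophan, Nitab4.5_0002255g0070.1 (NtTAA1T) was at 4.93, 4.38 and 5.31 TPM in VBI-2 and at 0.0734, 0.229 and 0.318 TPM in BY-2H (-4.40 ± 0.38). A second gene model of the same name, Nitab4.5_0000031g0380.1, was higher in BY-2H at 2.63, 2.18 and 3.15 TPM against 0.851, 0.143 and 0.520 TPM (2.62 ± 0.56). YUCCA enzymes take the next step to auxin, and the only YUCCA transcript above 2 TPM in either line was a YUCCA8 homolog, Nitab4.5_0007788g0010.1. It was at 11.1, 10.96 and 14.4 TPM in VBI-2, with 1 read over the BY-2H libraries, a ratio of 377 with a counting interval of 67.4 to 14923 (95%). The same transcript had no reads in VBI-0 in either phase and 0.0991 TPM in stationary BY-2, so among the groups measured it was above 1 TPM in VBI-2 alone. NtYUCCA3T was low in both lines, with means of 0.0476 TPM in BY-2H and 0.737 TPM in VBI-2, and NtTAA1S and NtYUCCA3S were below the filter. Over the 19 YUCCA members, 6 were tested, of which a YUCCA4 and a second YUCCA8 homolog were higher in BY-2H, and this YUCCA8, NtYUCCA3T and a pair of YUCCA6 homologs were higher in VBI-2.

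Transcripts for the inactivation of auxin were mostly higher in BY-2H. Of 30 members, 22 were tested, 13 were higher in BY-2H and 4 were higher in VBI-2, with a median of 1.39 and a summed level of 464 to 468 TPM against 282, 151 and 156 TPM. All 4 IAMT1 homologs, which methylate auxin, were higher in BY-2H. NtIAMT1aS was at 16.3, 15.2 and 18.5 TPM in BY-2H and at 0.121, 0.117 and 0.0538 TPM in VBI-2 (7.37 ± 0.25). NtIAMT1bS was at 7.15 against 0.296 TPM and NtIAMT1bT at 6.51 against 0.827 TPM on average. Both homologs of DAO1, the dioxygenase that oxidises auxin, were higher in BY-2H, NtDAO1T at 246, 238 and 249 TPM against 122, 56.8 and 56.0 TPM (1.69 ± 0.18) and NtDAO1S at 63.2 against 27.5 TPM on average. The glucosyltransferase NtUGT3T was at 74.5, 80.4 and 66.1 TPM in BY-2H and at 52.9, 29.3 and 32.6 TPM in VBI-2 (1.28 ± 0.15), and this call was lost with limma on log2(TPM + 0.5), at 0.98. NtUGT3S had 0 reads in both habituated lines in this phase, while exponential VBI-0 held 1404 TPM of NtUGT3T and 19.0 TPM of NtUGT3S. The GH3 enzymes, which join auxin to amino acids, were split. Of 15 tested GH3 transcripts, 6 were higher in BY-2H, among them NtGH3.6cS, NtGH3.6cT, NtGH3.6dS and NtGH3.6bS, and 4 were higher in VBI-2, namely NtGH3.1bS1, NtGH3.1bS2crip, NtGH3.1bT2 and a GH3.6 pseudogene. NtGH3.1bS1 was at 0.222, 0.221 and 0.536 TPM in BY-2H and at 10.7, 4.80 and 5.33 TPM in VBI-2 (-4.45 ± 0.35), without overlap and highest in replicate 1 of VBI-2, against 23.3 TPM in exponential VBI-0.

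Amidohydrolases, which free auxin from its conjugates, showed a change of family members. Of 15 members, 12 were tested, 5 were higher in BY-2H and 4 were higher in VBI-2. NtILR1bT was at 1.54, 1.92 and 2.45 TPM in BY-2H and at 38.6, 48.4 and 44.6 TPM in VBI-2 (-4.47 ± 0.18). NtILR1bS was at 0.652, 0.719 and 0.633 TPM and at 29.4, 35.2 and 35.0 TPM (-5.70 ± 0.17), and NtILR1aT at 0.223, 0.343 and 0.181 TPM and at 17.2, 21.9 and 19.5 TPM (-6.23 ± 0.23). These 3 ILR1 homologs were thus at 17.2 TPM or more in every VBI-2 library and under 3 TPM in every BY-2H library, whereas NtILR1aS was at 9.35 to 15.8 TPM in BY-2H and 16.3 to 20.1 TPM in VBI-2 and was not called. In VBI-0, NtILR1bT and NtILR1bS were also high, with 34.2 and 18.3 TPM in the exponential phase, but NtILR1aT was at 1.42 TPM. Opposite to these, NtIAR3aS was at 8.0, 7.65 and 6.19 TPM in BY-2H with only 2 reads in VBI-2, a ratio of 294 with a counting interval of 81.0 to 2438 (95%). NtIAR3aT and NtILL3S were about 2-fold higher in BY-2H (1.16 ± 0.18 and 1.24 ± 0.09), and NtIAR3bS was higher in VBI-2, with means of 17.9 against 53.6 TPM. The summed level of the class was 141 to 154 TPM in BY-2H and 212 to 247 TPM in VBI-2.

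Among carriers for auxin, most efflux transcripts were higher in BY-2H. All 8 tested PIN transcripts for efflux were called, 6 higher in BY-2H and 2 were higher in VBI-2, and their summed level was 95.7 to 103 TPM in BY-2H and 12.8 to 13.2 TPM in VBI-2. NtPIN11T was at 38.9, 42.3 and 35.2 TPM in BY-2H and at 0.240, 0.218 and 0.292 TPM in VBI-2 (7.27 ± 0.16), and NtPIN11S at 24.2, 25.5 and 23.1 TPM against 0.153, 0.0891 and 0 TPM (8.09 ± 0.23). NtPIN3aT was at 5.54, 5.11 and 6.24 TPM against 0.188, 0.208 and 0.298 TPM (4.68 ± 0.23), and NtPIN3bT at 24.0 against 5.77 TPM on average. The transcripts higher in VBI-2 were NtPIN2T, with means of 0.440 TPM in BY-2H and 4.57 TPM in VBI-2, and NtPIN2S, with 0.207 and 1.97 TPM. In exponential VBI-0, NtPIN11T was at 14.3 TPM and NtPIN3aT at 38.7 TPM, so that the low levels of both in VBI-2 were not shared by the dependent line of the same cultivar. The PIN2 transcripts did not follow the other PINs in either phase, since all 8 calls were repeated in the stationary phase with the same direction.

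Influx carriers of the AUX1/LAX family were tested in 7 of 12 members, 4 of which were higher in BY-2H and 2 were higher in VBI-2. NtLAX1aT was at 168, 172 and 170 TPM in BY-2H and at 20.4, 20.7 and 15.9 TPM in VBI-2 (3.16 ± 0.09), and it made up most of the summed LAX level of 244 to 249 TPM in BY-2H against 56.9 to 70.8 TPM in VBI-2. NtLAX3S, at means of 15.7 and 1.73 TPM, and NtLAX3T, at 49.1 and 14.5 TPM, were higher in BY-2H as well. NtLAX1bT was at 0.0585, 0.299 and 0.518 TPM in BY-2H and at 6.73, 6.18 and 4.85 TPM in VBI-2 (-4.25 ± 0.35), and NtLAX2bT was at 1.05 against 7.79 TPM. NRT1.1 is a nitrate transporter that also moves auxin in Arabidopsis, and of 6 tested NRT1 homologs in this class, 5 were higher in VBI-2. The most abundant of these, Nitab4.5_0006367g0020.1, was at 0.264 TPM in BY-2H and 8.43 TPM in VBI-2, and the 1 homolog higher in BY-2H, Nitab4.5_0004430g0080.1, was at 12.5 against 4.01 TPM.

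ABCB transporters, some of which move auxin across the plasma membrane, were mostly higher in VBI-2. Of 23 members, 16 were tested, 1 was higher in BY-2H and 9 were higher in VBI-2, with a median of -1.09. The summed level was 105 to 112 TPM in BY-2H and 370, 238 and 265 TPM in the VBI-2 libraries, highest in replicate 1, and without that library 8 were higher in VBI-2. NtABCB21T was the most abundant in both lines, at 47.9, 51.9 and 46.9 TPM in BY-2H and at 224, 125 and 151 TPM in VBI-2 (-1.66 ± 0.13). NtABCB21S was at 0.558, 0.411 and 0.543 TPM against 23.1, 12.6 and 15.4 TPM (-5.03 ± 0.21), and NtABCB2T, Nitab4.5_0002250g0010.1, was at 2.08 against 22.1 TPM on average (-3.37 ± 0.15). The 1 transcript higher in BY-2H was a gene model of NtABCB9aT at 1.12 TPM. Another model of the same name went the opposite way, with reads in VBI-2 alone. Of 17 tested PILS transcripts, 5 were higher in BY-2H and 7 were higher in VBI-2. Among the abundant members, NtPILS5aT was at 11.5 against 69.8 TPM (-2.45 ± 0.12) and NtPILS5aS at 14.1 against 51.3 TPM. A PILS2 homolog, Nitab4.5_0002456g0140.1, was at 8.83 against 28.3 TPM, and all of these were higher in VBI-2. The S and T copies of NtPILS6a, in contrast, summed to 24.3 TPM in BY-2H and 21.3 TPM in VBI-2. Most of that was the T copy, with mean shares of 82.4% and 94.3%. The NtPILS6b copies summed to 16.2 and 25.1 TPM. A PILS3 homolog, Nitab4.5_0005948g0010.1, had 0 reads in BY-2H and was at 8.10, 8.52 and 6.35 TPM in VBI-2, at least 106-fold higher. No PIN transcript of the endomembrane class passed the filter.

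**Figure D2:**
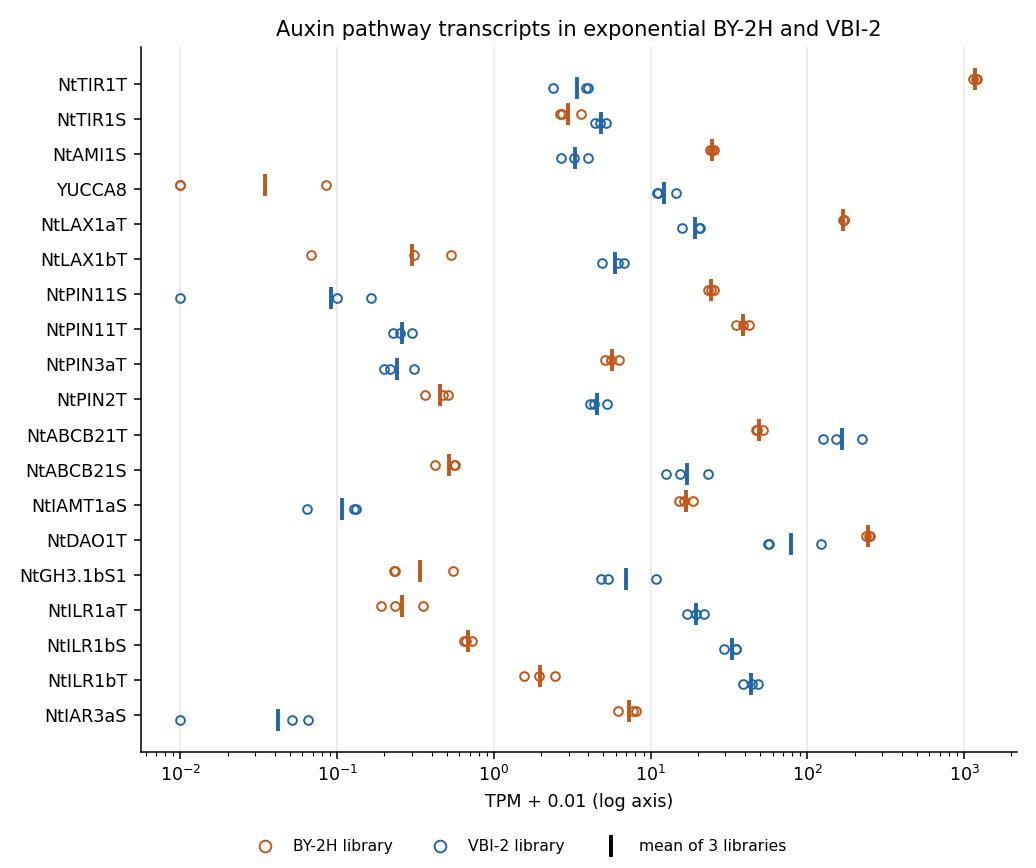
TPM + 0.01 on a log axis (x) of named auxin transcripts (rows) in each exponential library, with open circles for the 3 libraries of a line and a vertical bar for their mean. NtTIR1T lies at 1140.5 to 1213 TPM in BY-2H and 2.37 to 3.96 TPM in VBI-2, and the 3 ILR1 homologs, YUCCA8 and NtLAX1bT lie on the opposite side.

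The weight of the S and T copies of a gene often differed between the lines. There were 38 pairs in which a name occurs once with S and once with T, and 25 of them had a summed mean of at least 1 TPM in both lines. The share of the T copy in the summed TPM did not overlap between the lines in 21 of these 25 pairs. It differed by over 20 percentage points in 9, and lay on opposite sides of 50% on average in 9. Lack of overlap was common among all 44996 tested transcripts. By TPM, every BY-2H library lay above every VBI-2 library for 37.5% of them, and the reverse order held for 41.7%. Those figures are for single transcripts, and no background was computed for shares. The count of 21 pairs is therefore not shown to be unusual. With 3 against 3 libraries an exact permutation test cannot go below p = 0.10, so no test is given for single pairs. For TIR1 the T share was 99.7% to 99.8% in BY-2H and 34.9% to 44.5% in VBI-2. For LAX1b, whose copies summed to only 1.62 TPM in BY-2H, it was 4.67% to 25.5% against 89.9% to 95.3%. For PILS5b it was 3.92% to 9.21% against 60.2% to 79.7%. For LAX1a it was 94.98% to 96.3% against 57.7% to 60.4%, and for AMI1 44.2% to 47.2% against 84.2% to 88.1%. ILR1a was expressed almost only from its S copy in BY-2H, with a T share of 1.76% to 2.13%, and evenly in VBI-2, with 49.6% to 54.5%. The opposite held for IAR3a, with 42.7% to 55.3% in BY-2H and 98.3% to 100% in VBI-2. Pairs with little difference were NtUGT3, of which only the T copy had reads, and NtLAX2b, at 97.2% and 97.0% on average. Shorter reads are shared more among copies, and the part of read type in these shares was not tested.

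**Figure D3:**
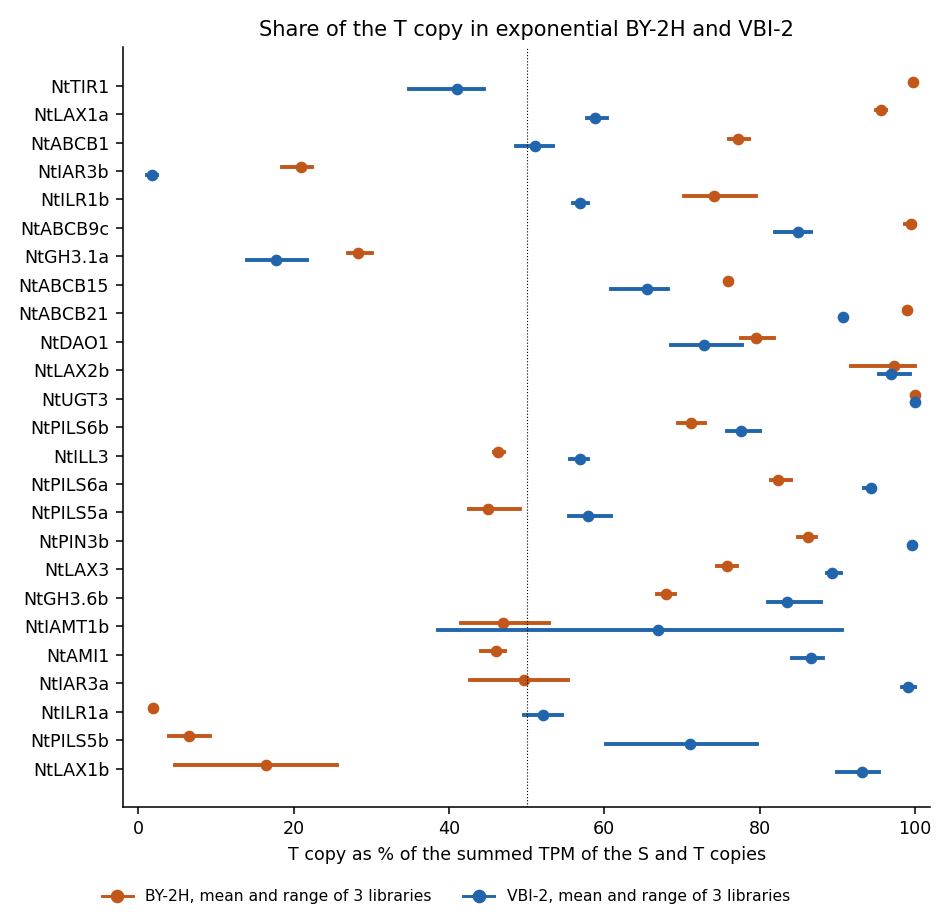
Share of the T copy in the summed TPM of each S and T pair (x axis, percent), for the 25 pairs with at least 1 TPM in both lines, ordered by the difference. Points are means and lines the range of 3 libraries, and the largest gaps are at LAX1b (16.4% against 93.2%), PILS5b (6.52% against 71.0%) and TIR1 (99.7% against 41.0%). The LAX1b copies sum to 1.62 TPM in BY-2H, near the limit of 1 TPM, so that share rests on few reads.

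Among homologs of cell cycle regulators tied to auxin, E2Fb, a transcription factor at the entry to S phase, was the case with the largest difference. Of 4 E2Fb homologs, Nitab4.5_0000380g0210.1 was at 10.9, 13.1 and 11.1 TPM in BY-2H and had 0 reads in VBI-2, at least 282-fold higher. The same transcript was at 2.89 TPM in stationary BY-2 and 0.0203 TPM in exponential VBI-0, so it was near 0 in both lines of the cultivar Virginia Bright Italia. A second homolog, Nitab4.5_0002706g0020.1, was higher in VBI-2, at 2.03 against 5.97 TPM (-1.36 ± 0.21), and the remaining E2Fb homologs and both SKP2 homologs, F-box proteins that act in the turnover of E2F regulators, were not called. The summed E2Fb level was 24.7 to 27.0 TPM in BY-2H and 25.97 to 28.9 TPM in VBI-2.

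The transcription factors that the study listed as particular to the habituated lines separated BY-2H from VBI-2 almost completely. That list of 72 factors was chosen on these libraries, so its direction is a description and no independent evidence. With at least 1 TPM in every library of a line as the criterion, over both phases, 22 factors were on in BY-2H, 45 in VBI-2 and 5 in both, and 21 of the first and 44 of the second group were called in that direction in the exponential phase. None of the 5 shared factors was called in this phase. Of the 45 factors on in VBI-2, 28 had 0 reads in exponential BY-2H, and of the 22 factors on in BY-2H, 9 had 0 reads in exponential VBI-2. By the paper's account, the list admitted only factors with low TPM in all samples of the dependent lines. They also had to reach a minimum TPM in all samples of BY-2H or of VBI-2. The sums of means in the dependent lines, 4.91 TPM in exponential VBI-0 and 2.05 TPM in stationary BY-2, were therefore low by selection. The direction of their contrast with 139.5 to 145.0 TPM in BY-2H and 789 to 815 TPM in VBI-2 was fixed in the same way.

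In VBI-2 the most abundant of these factors were MADS-domain proteins that specify floral organs. NtPI-like1T, a homolog of PISTILLATA, was at 308, 352 and 301 TPM in VBI-2 and had 0 reads in BY-2H, at least 1649-fold higher, and ranked 414 by mean TPM in VBI-2. PISTILLATA acts as a dimer with APETALA3 in Arabidopsis, and 2 neighbouring gene models of NtAP3-likeT were at 94.5, 103 and 107 TPM and at 101.5, 104 and 108 TPM in VBI-2, with 2 reads and 0 reads in BY-2H. The second of these models was at least 570-fold higher in VBI-2. SEPALLATA proteins join the other floral MADS factors into complexes, and NtSEP1-likeS, at 18.3, 16.8 and 14.6 TPM, and NtSEP3S, at 9.72, 5.16 and 10.3 TPM, had 0 reads in BY-2H, as did NtAG-likeS, a homolog of AGAMOUS, at 12.4, 6.35 and 16.7 TPM. The model of NtAG-likeS is 291 bases long and those of NtAP3-likeT 357 and 381 bases. Other factors above 10 TPM in VBI-2 were similar to bHLH30, bHLH18, GATA, TCP12 and C2H2 proteins. A C2H2-like transcript, Nitab4.5_0004543g0030.1, and a TCP12-like transcript, Nitab4.5_0011812g0020.1, were the ones still near 1 TPM in BY-2H, with means of 1.09 and 1.04 TPM against 15.9 and 13.1 TPM.

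In BY-2H the factors of the list were less abundant. AGL19, also a MADS-domain homolog, was at 25.2, 23.3 and 20.4 TPM in BY-2H with 1 read over the VBI-2 libraries, a ratio of 328 with a counting interval of 58.2 to 12988 (95%). MYB4-like, at 10.8, 13.2 and 9.14 TPM, ERF7, at 8.78, 8.09 and 9.69 TPM, and AGL29, at 8.19, 9.30 and 10.3 TPM, had 0 reads in VBI-2 and were at least 69.0-fold, 67.2-fold and 60.6-fold higher. TCP1 and a bZIP factor were at 7.51 against 0.611 TPM and 6.41 against 0.628 TPM on average. The shared factors included JMJ25-like, a homolog of a histone demethylase, at 6.94, 8.14 and 7.63 TPM in BY-2H and 11.6, 9.22 and 9.33 TPM in VBI-2 (-0.37 ± 0.10), and a LuxR family factor at 4.43 to 10.3 TPM and 6.88 to 9.04 TPM, with overlap between the lines.

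**Figure D4:**
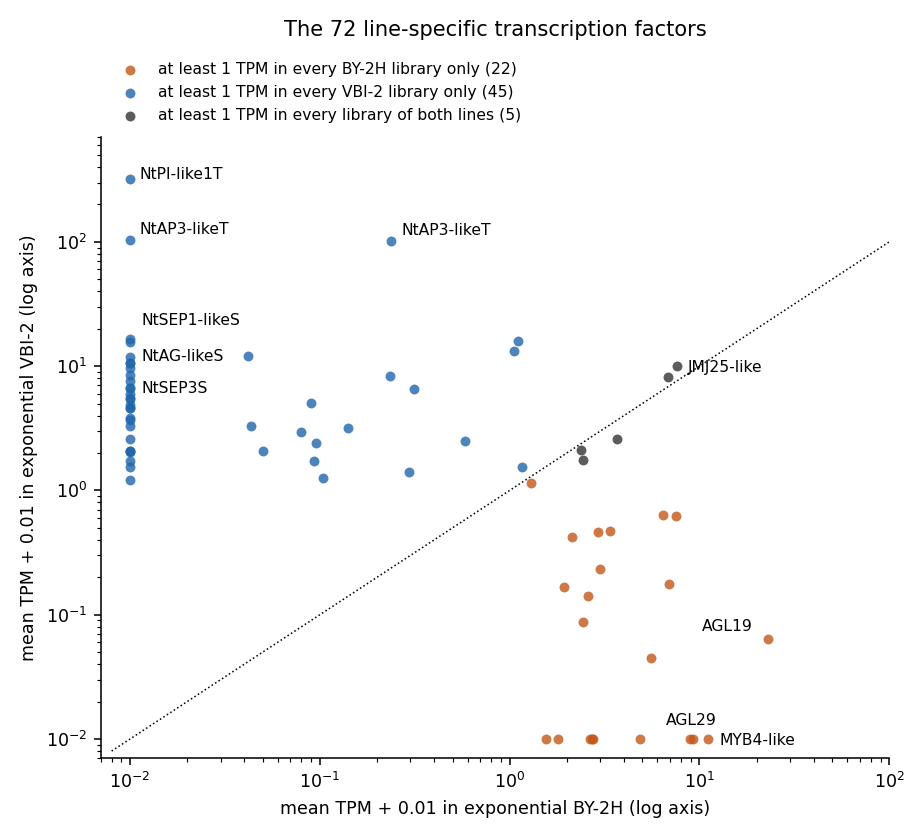
Mean TPM + 0.01 of the 72 listed transcription factors in exponential BY-2H (x) and VBI-2 (y), both on log axes, with points coloured by the line in which every library of both phases held at least 1 TPM and a dotted line at equality. The MADS factors NtPI-like1T and NtAP3-likeT lie at about 321 and 101 to 104 TPM in VBI-2, and points at the left or bottom edge have no reads in 1 line.

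The Polycomb complex PRC2 silences developmental genes through methylation of histone H3, and EMF2 is 1 of its subunits in Arabidopsis. Of 4 EMF2-like transcripts, 3 were higher in BY-2H. Nitab4.5_0000600g0150.1 was at 33.6, 35.6 and 37.2 TPM in BY-2H and at 2.04, 1.89 and 2.37 TPM in VBI-2 (4.17 ± 0.11), and Nitab4.5_0001472g0030.1 at 29.3, 27.5 and 30.4 TPM against 1.57, 1.72 and 1.45 TPM (4.31 ± 0.11). Nitab4.5_0007599g0010.1 was at 12.5, 13.5 and 11.8 TPM in BY-2H and had 1 read in VBI-2, a ratio of 1433 with a counting interval of 257 to 56667 (95%). The 4th, Nitab4.5_0002153g0020.1, was at 4.40 to 6.49 TPM and 5.42 to 6.25 TPM and did not differ by the test (0.01 ± 0.16). In exponential VBI-0 the EMF2-like sum was 43.5 TPM, against 81.3 to 83.8 TPM in BY-2H and 9.28 to 9.86 TPM in VBI-2. Of the 14 other PRC2 components, 2 were higher in BY-2H, 2 higher in VBI-2 and 10 not called, and the summed level over all 18 members was 328 to 333 TPM in BY-2H and 312 to 317 TPM in VBI-2.

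Outside these lists, the largest differences among abundant transcripts were between full expression and none. Nitab4.5_0001216g0090.1 was at 2609, 2372 and 2487 TPM in BY-2H and had 0 reads in VBI-2, and Nitab4.5_0000802g0160.1 was at 566, 598 and 573 TPM against 0 reads. In the other direction, Nitab4.5_0000927g0050.1 was at 781, 877 and 813 TPM in VBI-2 and Nitab4.5_0003782g0030.1 at 1005, 1116 and 1085 TPM, with 0 reads in BY-2H. These 4 carry no name in the sources used here. In exponential VBI-0 they were, in the order given, at 0.0343, 110, 787 and 2464 TPM. Stationary BY-2 held 316, 121, 305 and 540 TPM of them. Fewer than 1 read in each library of 1 line together with a mean of at least 2 TPM in the other was found for 6.77% of the 29536 transcripts of at least 2 TPM in BY-2H and for 6.50% of the 29826 in VBI-2, which is 1939 transcripts. Of the VBI-2 set 733 were shorter than 300 bases, against 309 of the BY-2H set. The pattern also held in the stationary phase for 1579 of the first and 1433 of the second set. Of the transcripts with reads in BY-2H alone, 775 were at 2 TPM or more in exponential VBI-0, the dependent line of the cultivar without them in VBI-2, and 730 had under 1 read in each VBI-0 library. Of those with reads in VBI-2 alone, 889 were at 2 TPM or more in stationary BY-2, and 585 had under 1 read in each of its libraries. A missing or altered gene and a silent one cannot be told apart from reads that fail to match. Runs of at least 4 neighbouring transcripts with this pattern were found 14 times for BY-2H, with 63 transcripts and at most 6 in a run, and 4 times for VBI-2, with 23 transcripts and at most 7 in a run.

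The scaffold that carries NtTIR1T was examined gene by gene. Of its 13 gene models, 9 were tested, 3 were higher in BY-2H and 1 was higher in VBI-2. Besides NtTIR1T, a model 4 places further along was at 228, 230.0 and 232 TPM in BY-2H and at 15.3, 14.0 and 15.1 TPM in VBI-2 (3.91 ± 0.08), and a model 5 places before it was at 16.1, 20.2 and 19.7 TPM against 6.29, 5.29 and 6.39 TPM (1.89 ± 0.16). The next model after NtTIR1T went the opposite way, at 5.19, 5.75 and 5.44 TPM in BY-2H and 31.1, 22.6 and 25.8 TPM in VBI-2 (-2.09 ± 0.16). This model was at 8.80 TPM in exponential VBI-0 and 5.40 TPM in stationary BY-2, so its level in VBI-2 was the one apart. The model 4 places after NtTIR1T was at 7.41 and 10.0 TPM in those lines, and the model 5 places before it at 6.36 and 7.25 TPM. The remaining 5 tested models, an ARF among them at 12.3 to 14.0 TPM and 7.71 to 8.96 TPM (0.87 ± 0.17), were not called.

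The same cultivars can be compared within 1 company and read type in the dependent lines, stationary BY-2 against stationary VBI-0. This contrast shares no library with the exponential comparison but differs from it in phase and in the presence of auxin. BY-2 and VBI-0 also differed from each other in basal medium and in the auxins added, and by the paper's account BY-2 was harvested on an earlier day. Between them, 26.4% of 44151 tested transcripts were higher in BY-2 and 27.1% higher in VBI-0. Of 22339 transcripts called between exponential BY-2H and VBI-2 and tested in both, 45.5% were called in the same direction between BY-2 and VBI-0, 14.5% in the opposite direction and 40.0% were not called. The shared calls were 47.4% of the calls between the dependent lines. Replicates of stationary BY-2 differed far more among themselves than those of the other groups. The chi-squared of reads per degree of freedom was 28.6 to 31.6 between its libraries, against 2.03 to 8.09 elsewhere. A transcript not called between the dependent lines may therefore still differ. Among auxin transcripts, NtTIR1T (3.43), NtAMI1S (3.81) and the E2Fb homolog with 0 reads in VBI-2 (7.41) were also higher in BY-2 than in VBI-0, and NtILR1bT (-4.79), NtLAX1bT (-4.03) and NtABCB2T (-1.76) were also lower. NtPIN3aT (-3.71) and NtIAMT1aT (-2.92) went the opposite way, and the EMF2-like transcript with 1 read in VBI-2 (-0.34) was not called. Of the 23 AUX/IAA transcripts higher in BY-2H, 6 were also higher in BY-2, 4 were higher in VBI-0 and 13 were not called between the dependent lines.

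**Figure D5:**
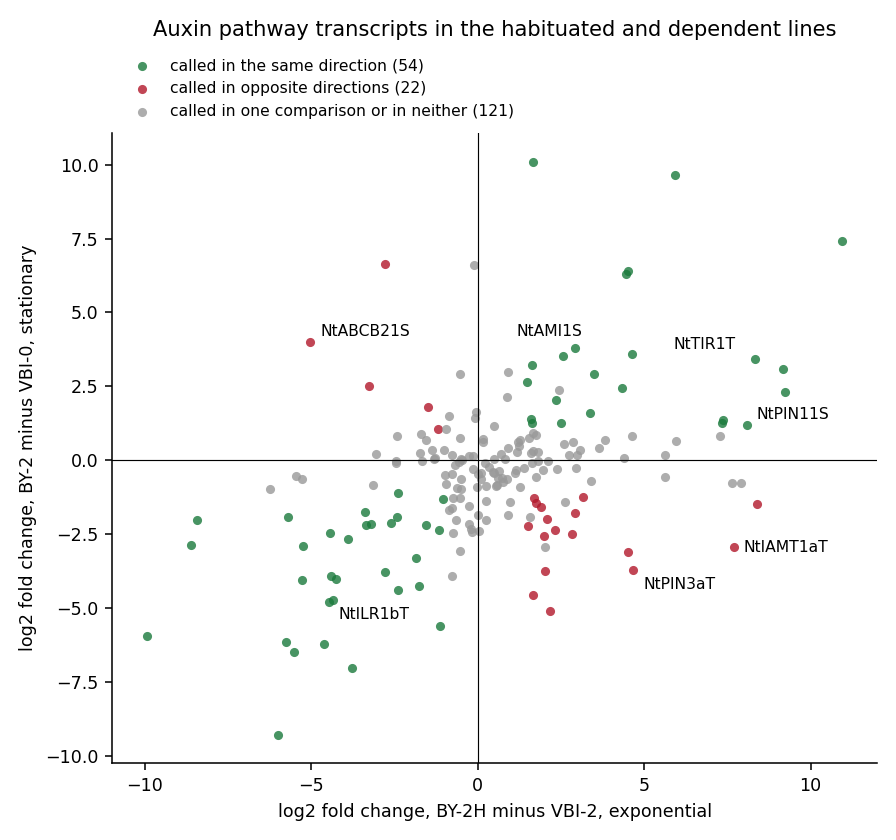
Log2 fold changes of 197 auxin pathway transcripts between exponential BY-2H and VBI-2 (x) and between stationary BY-2 and VBI-0 (y), coloured by whether both comparisons called them. Of these, 54 were called in the same direction, NtTIR1T among them, and 22 in opposite directions, among them NtPIN3aT and NtABCB21S. Of all 40366 transcripts tested in both comparisons, 10163 were called in the same direction and 3234 in opposite ones. The share in the same direction was close to that of the auxin transcripts, and the opposite share was somewhat lower than theirs. This difference was not tested.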

How the data were processed

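RNA-seq of suspension cells was quantified by the authors with Salmon (1.3.0 per the labels, which also name Trimmomatic, while the methods name Rcorrector and Trim Galore) against the tobacco cDNA set with Nitab4.5 identifiers. Each deposited table held, per transcript, an estimated count (of pairs for paired libraries), TPM, length and effective length, with no scaling between libraries. Members and lists were chosen with earlier results of these data known. Auxin classes, PRC2 components, line-specific factors and primer sequences came from the study's supplementary lists.

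Here, estimated counts were rounded, scaled by TMM and tested on the 6 exponential libraries with edgeR 4.0.16 (quasi-likelihood, Benjamini-Hochberg) in R 4.3.3. The filter kept transcripts whose mean passed 0.5 TPM in either line. SE is the absolute log2 fold change over the square root of F. Against 0 reads, folds used 3 reads per group as the floor, and ratios on 1 to 3 reads a 95% Clopper-Pearson interval. On simulated counts for this comparison 44827 transcripts were tested, and 200 transcripts above a minimum read count were changed. Of these changes, 100% of 4-fold and 52% of 2-fold ones were called, with 6 false calls. A 2-fold change lies at the fold change limit itself. In the data 57.3% of transcripts were called, many of low count, so these rates need not hold there. Stationary libraries were fitted likewise. Transcripts named were all receptors, per other auxin class up to 3 called per direction with at least 5 TPM and no overlap, factors with a name or similarity, EMF2-like transcripts, the RT-qPCR references, the NtTIR1T scaffold, the 2 most different transcripts per direction with at least 100 TPM, and NtAMI1, NtTAA1, NtYUCCA3, NtUGT3 and NtARF5S. All other names (NtPIN2, NtPIN3bT, NtDAO1, NtIAMT1aT, NtGH3.6, NtGH3.1bS2crip, NtGH3.1bT2, NtILR1aS, NtIAR3bS, NtLAX2bT, NtABCB21T, NtABCB9aT, NtPILS5aS, NtPILS6a, NtPILS6b, an NRT1 and an AUX/IAA transcript, and the YUCCA4, YUCCA6 and second YUCCA8 homologs) were chosen after their values were seen. Alternatives were DESeq2 1.42.0, limma 3.58.1 on log2(TPM + 0.5) and log2(TPM + 1), other scalings, filters, library sets and fold change limits, an effective length offset, the replicate number as a block and leaving out each library. Lengths were used for the length classes and effective lengths for the offset. No gene names beyond those lists and no transcript sequences were used.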

Additional observations from a re-analysis of the deposited data

Results flagged for a closer look

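Among the 105 named transcripts tested, 5 differed between stationary BY-2 and stationary VBI-0 in the direction opposite to that between stationary BY-2H and stationary VBI-2, with no overlap of libraries in either comparison. The log2 fold change of BY-2 minus VBI-0 was -1.77 for NtIAMT1bT, -3.71 for NtPIN3aT and -1.23 for NtLAX1aT, against 3.73, 5.30 and 5.03 for BY-2H minus VBI-2. It was 2.51 for the receptor Nitab4.5_0002093g0180.1 and 4.01 for NtABCB21S, against -2.04 and -4.67. The difference between these contrasts was not tested. Of all 40366 transcripts tested in both, 3234 were called in opposite directions between exponential BY-2H against VBI-2 and stationary BY-2 against VBI-0. Among the auxin transcripts it was 22 of 197.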

How the results depend on the processing

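Of the 105 named transcripts tested, no called one changed sign under any alternative run, while some near 0 that were not called did, such as NtAMI1T (0.07) and the LuxR family factor (-0.19) under the effective length offset. Over all transcripts, DESeq2 called 12232 higher in BY-2H and 12422 were higher in VBI-2, and leaving out 1 library gave 12364 to 12617 and 12682 to 12908. Counts per list that moved by over 1.5 times are given in the direction named. With no fold change limit, ABCB had 2 higher in BY-2H, PRC2 had 9 for BY-2H and 6 for VBI-2, receptors 7 and 6, ARF 17 higher in VBI-2, cell cycle 4 higher in VBI-2 and the unclassed transcripts 226 higher in BY-2H. With a natural-log limit, PRC2 and reactivation each had 3 higher in BY-2H and cell cycle 0 higher in VBI-2. With no filter, ABCB had 4 higher in BY-2H, and inactivation and reactivation each had 7 higher in VBI-2. With edgeR's own filter, ABCB had 2, SAUR-like 4 and endomembrane 3 higher in BY-2H, and biosynthesis 3 higher in VBI-2. With limma, ARF had 5 higher in VBI-2 under both pseudocounts, and at a pseudocount of 1 receptors had 1 and biosynthesis 2 higher in VBI-2, and SAUR-like had 5 and endomembrane 3 higher in BY-2H. Among transcripts of at least 500 bases, SAUR-like had 2 higher in BY-2H and 911 transcripts had reads in VBI-2 alone. At 5 TPM, 1234 transcripts had reads in BY-2H alone and 1104 in VBI-2 alone. The cause of these shifts, beyond the construction of each alternative, was not tested. Same-numbered exponential libraries showed no shared deviation (r = -0.045, -0.006 and -0.016), which cannot settle whether the numbers pair the samples. With the replicate number as a block the calls were 12343 for BY-2H and 12593 for VBI-2. Each line is 1 culture, and company, read type, medium and cultivar go with it.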
